A study of Mus musculus with 8 samples.

Results

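The 9 genes described here were read from the table of SOL muscle, the soleus, and were chosen by these values themselves, because MI4KO and flox mice differ or do not overlap in them. They are 2610035D17Rik, Amigo3, Erdr1, Gm7120, Kif1a and Lancl1, which had lower values in MI4KO muscle, and Poln, Rab30 and Syt12, which had higher values, out of 24054 genes in the table. All 9 were among the 11865 genes tested, those that reached 1 in 4 or more of the 8 mice. The difference between the groups chose these genes, so it is given for them as a description without a test.

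SOL RNA came from 4 MI4KO mice and 4 flox mice, all males of the C57BL/6 strain, and the labels record a High fat diet for all of them. Both groups carry floxed Irf4 alleles, and MI4KO mice also carry Cre inserted at Myl1, a gene of skeletal muscle fibers, so that Irf4 is lost from fibers and not from the other cells of the muscle. The age of the sequenced mice is not given in the sources used here. The mice are numbered 1 to 4 within each group in the order of the numbers in their labels. Each value is the authors' TMM-normalized CPM, a read count set against the size of the library, with library sizes adjusted so that most genes keep a common level. The values could be turned back into whole reads, and the mice had between 13417512 and 16384565 reads on genes. In this bulk RNA, fewer cells of a type and less RNA per cell cannot be told apart.

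The genes belong to different systems. AMIGO3 is an adhesion protein with leucine-rich repeats and an immunoglobulin domain, KIF1A is a kinesin motor that carries synaptic vesicle precursors along axons, and SYT12 is a synaptotagmin, a family of membrane proteins of vesicle traffic. RAB30 is a small GTPase of the Golgi, LANCL1 is a glutathione-binding protein related to bacterial lanthionine synthetases, and POLN is a DNA polymerase of the A family linked to cross-link repair. Erdr1 is named for an effect on erythroid differentiation, Gm7120 is a gene model now called Tmem267 and predicted to encode a transmembrane protein, and 2610035D17Rik is a long noncoding RNA. IRF4, the factor removed in MI4KO fibers, binds GAAA repeats, as in the interferon-stimulated response element.

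Since IRF4 binds such letters, the sequence before the start of these genes is shown for 3 of the 9, with every GAAA or its complement TTTC in capitals. RefSeq promoters on GRCm38.p6 were used for 5 of the 9 genes, namely 2610035D17Rik, Amigo3, Gm7120 (as Tmem267), Kif1a and Lancl1. For these 3 only bases ahead of the annotated gene are printed, 250 for 2610035D17Rik and Amigo3 and 193 for Lancl1, whose window reaches into the gene.
2610035D17Rik, chr11:113201839-113202088, minus strand: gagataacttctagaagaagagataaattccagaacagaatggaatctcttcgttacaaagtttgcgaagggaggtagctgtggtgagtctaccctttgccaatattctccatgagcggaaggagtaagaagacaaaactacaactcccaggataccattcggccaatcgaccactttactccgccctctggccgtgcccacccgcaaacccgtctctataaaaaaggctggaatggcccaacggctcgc
Amigo3, chr9:108052909-108053158, plus strand: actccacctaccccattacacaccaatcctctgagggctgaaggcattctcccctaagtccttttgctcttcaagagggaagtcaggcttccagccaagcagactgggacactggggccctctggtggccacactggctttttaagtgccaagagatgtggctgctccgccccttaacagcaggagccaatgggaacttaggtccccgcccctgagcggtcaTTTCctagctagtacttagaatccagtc
Lancl1, chr1:67038892-67039084, minus strand: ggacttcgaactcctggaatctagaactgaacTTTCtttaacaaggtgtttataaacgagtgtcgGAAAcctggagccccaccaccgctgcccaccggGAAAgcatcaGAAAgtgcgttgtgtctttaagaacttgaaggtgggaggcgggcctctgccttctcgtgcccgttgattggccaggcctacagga

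Counted over the whole window of 250 bases ahead of the start, which for Lancl1 includes the bases inside the gene that are not printed, 2610035D17Rik held no GAAA on either strand, Amigo3 held 1 and Lancl1 held 4. Among all 32851 promoter windows of this length, 86.4% held at least 1, and the median was 2. The paired form GAAANNGAAA, searched on both strands, was in 2.98% of the windows, and the related form GGAANNGAAA was in 2.30%. Among the 7 windows of the 5 genes, the paired form was in 1 and GGAANNGAAA was in 0. GAAANNGAAA holds 2 GAAA cores and GGAANNGAAA holds 1, so neither form is counted apart from the core. The window with the paired form lies before a second start inside Kif1a, and the match stands near its end, as a pair of runs in capitals with 2 bases between them.
Kif1a, chr1:93082481-93082730, minus strand: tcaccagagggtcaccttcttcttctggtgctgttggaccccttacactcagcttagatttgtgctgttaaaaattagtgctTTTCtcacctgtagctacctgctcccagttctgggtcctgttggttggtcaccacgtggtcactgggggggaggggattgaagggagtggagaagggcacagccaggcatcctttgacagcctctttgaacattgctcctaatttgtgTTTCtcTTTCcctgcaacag
A match is only a run of letters, and no binding of IRF4 was measured in these data. Whether the second start of Kif1a is used in SOL, so that this window acts as a promoter there, was not measured either.

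Irf4 itself was looked at against the labels, but it cannot settle the label of any single mouse. It was at 0.686, 1.46, 1.58 and 1.68 in flox mice 1 to 4 and at 0.725, 0.840, 0.266 and 1.03 in MI4KO mice 1 to 4. The groups overlapped, because flox mouse 1 was lower than 3 of the MI4KO mice, and only 120 reads in all stand behind these values. Its log2 difference on log2(value + 1) was -0.45 (SE 0.20), a scale that understates the change of genes with low values. Skeletal fiber markers were abundant in every library, with summed values of 122200 to 144265 over 14 of 14 genes in flox mice and 122435 to 141695 in MI4KO mice. The libraries were not alike in every respect. The summed liver markers reached 202.6 in flox mouse 1 against 1.81 to 4.30 elsewhere, and 53 tested genes were more than 1 log2 unit higher in MI4KO mouse 3 than in any other mouse, against 0 to 3 in each other mouse.

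The limits used below are a 1.5-fold change in either direction together with an unadjusted limma p under 0.05. The study used the same cutoffs with edgeR. Here the fold change is taken on log2(value + 1), which makes it smaller for genes with low values. The counts below are not those of the study, which reported many more genes in SOL. This scale does not account for all of that, since edgeR on the recovered reads gave 65 genes at the same cutoffs. What else sets the counts apart was not tested. Among all genes tested, 26 (0.219%) passed these limits, 19 (0.16%) lower and 7 (0.059%) higher in MI4KO mice, and 7 of the 9 genes described here are among these. Values of the groups did not overlap for 246 genes (2.07%), 202 (1.7%) lower and 44 (0.371%) higher, and 8 of the 9 are among these. The rule picked the 9 genes for this, so nothing is read from these counts. No gene had a Benjamini-Hochberg adjusted p under 0.05 in limma, where 399 genes (3.36%) had an unadjusted p under 0.05. The same count was 0 in edgeR and 0 in DESeq2 on the recovered reads, with 363 and 248 genes at an unadjusted p under 0.05.

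**Figure D1:**
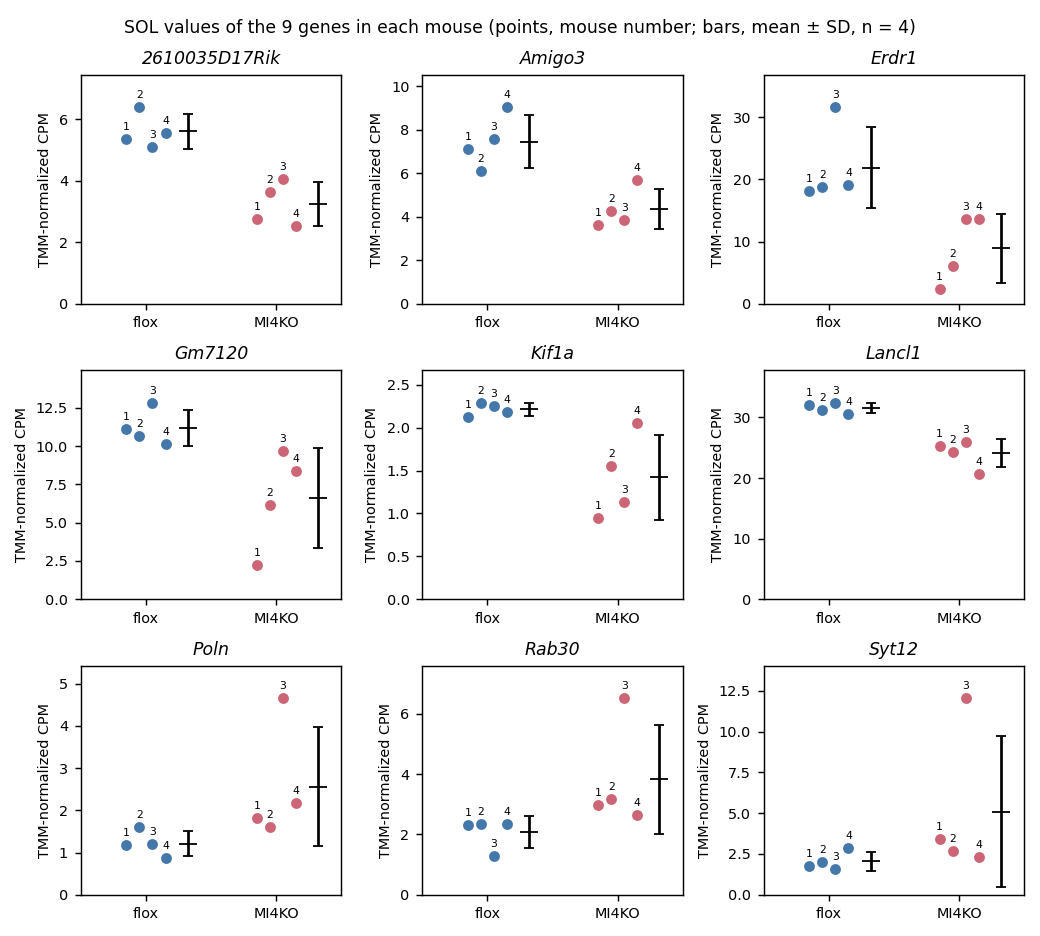
TMM-normalized CPM of the 9 genes in SOL, 1 panel per gene, with 1 point per mouse labeled by its number and bars for the mean ± SD (n = 4 per group). The lower 6 genes sit below every flox mouse in all 4 MI4KO mice, and MI4KO mouse 3 is the highest mouse for each of the 3 higher genes.

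2610035D17Rik, the long noncoding RNA, occupies positions 113043895 to 113201838 of chromosome 11 (GRCm38, minus strand) and has 5 exon blocks in GENCODE M21. Its values were 5.36, 6.38, 5.10 and 5.54 in flox mice 1 to 4 and 2.76, 3.62, 4.06 and 2.54 in MI4KO mice 1 to 4. Every MI4KO mouse was lower than every flox mouse. The means were 5.60 ± 0.554 (SD, n = 4) and 3.24 ± 0.715 (SD, n = 4), so that flox muscle had 1.73 times the value of MI4KO muscle. The spread was near what counting alone gives in flox mice and above it in MI4KO mice. The coefficient of variation was 9.90% in flox mice where the reads of those mice set a counting error of 11.2%, and 22.1% in MI4KO mice where counting sets 14.5%. The nearest tested genes on either side are Sox9, a regulator of cartilage, 256 kb away, and Slc39a11, a zinc transporter, 43.0 kb away. Sox9 had a log2 difference of 0.03 (SE 0.16) and Slc39a11 one of 0.09 (SE 0.12), and neither passed the limits.

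Amigo3 is a gene of a single exon block on chromosome 9 from 108053159 to 108055701 on the plus strand, inside the span of Rnf123 on the other strand but free of its exons. It was at 7.11, 6.10, 7.58 and 9.03 in flox mice 1 to 4. In MI4KO mice 1 to 4 it was at 3.63, 4.27, 3.86 and 5.68. The groups did not overlap, and the mouse nearest to the other group was MI4KO mouse 4. The means were 7.46 ± 1.22 (SD, n = 4) and 4.36 ± 0.921 (SD, n = 4), a log2 difference of -0.66 (SE 0.14). Its neighbors Gmppb, 1.24 kb away, and Apeh, 29.7 kb away, had log2 differences of 0.01 (SE 0.11) and 0.04 (SE 0.09), and Rnf123, which spans Amigo3, had one of -0.0041 (SE 0.0876). The other tested AMIGO and leucine-rich repeat genes, 6 of a list of 16, gave no gene past the limits. They ran from -0.24 for Lrrn2 to 0.01 for Lrrn1, with a median of -0.05 beside -0.01 over all genes tested.

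Kif1a occupies positions 93015464 to 93101951 of chromosome 1 (minus strand) and has 53 exon blocks. The flox mice were almost level, at 2.12, 2.29, 2.25 and 2.19 in mice 1 to 4. The MI4KO mice were at 0.943, 1.55, 1.13 and 2.05, below every flox mouse. Few reads stand behind these values, between 30 and 34 per flox mouse and between 13 and 34 per MI4KO mouse. The flox coefficient of variation of 3.37% is smaller than the 17.8% that counting alone sets, so the closeness of the flox mice cannot be taken as precision. Flox mouse 1 and MI4KO mouse 4 had 34 reads each. The means were 2.21 ± 0.075 (SD, n = 4) and 1.42 ± 0.494 (SD, n = 4), a log2 difference of -0.43 (SE 0.16), which is short of the limit of 1.5-fold on that scale. By the ratio of means, flox muscle had 1.56 times the value of MI4KO muscle, and the log2 difference in edgeR was -0.60. The study, with its own edgeR fit, lists Kif1a, Amigo3 and Syt12 among the genes changed in both SOL and gastrocnemius. In gastrocnemius it compared MI4KO mice with mice that overexpress IRF4 in muscle. Of 15 other kinesins of vesicle transport, 10 were tested and 0 passed the limits in limma, with 0 at an unadjusted p under 0.05. They ran from -0.10 for Kif13b to 0.08 for Kif13a, with a median of 0.01. Its nearest tested neighbors, Capn10 and Sned1, had log2 differences of -0.04 (SE 0.12) and -0.06 (SE 0.22).

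Lancl1 had the smallest relative difference and the most reads of the 9 genes, 3274 in all. It lies on chromosome 1 from 67000517 to 67038872 on the minus strand, with 9 exon blocks. It was at 32.1, 31.1, 32.4 and 30.5 in flox mice 1 to 4. In MI4KO mice 1 to 4 it was at 25.3, 24.3, 26.0 and 20.7. All 4 MI4KO mice were lower than all 4 flox mice, by 4.54 at the nearest pair. The means were 31.5 ± 0.868 (SD, n = 4) and 24.1 ± 2.34 (SD, n = 4), and flox muscle had 1.31 times the value of MI4KO muscle. The log2 difference was -0.38 (SE 0.08), below the limit of 1.5-fold.

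The gene next to Lancl1 is Myl1, 52.6 kb away, the locus that carries the Cre insertion in MI4KO mice. Myl1 encodes an alkali light chain of fast muscle myosin. Its values were 3151, 3664, 3510 and 3262 in flox mice 1 to 4 and 2447, 2203, 2736 and 2846 in MI4KO mice 1 to 4. Myl1 was also lower in every MI4KO mouse, with a log2 difference of -0.41 (SE 0.10, unadjusted p = 0.00135 and adjusted p = 1.0 by limma). Of the 8 tested genes within 2 Mb of Myl1, 0 passed the limits in limma and 1, which is Lancl1, did not overlap between the groups. On the other side of Myl1, Acadl, which encodes long-chain acyl-CoA dehydrogenase and lies 61.0 kb away, was at 1107 to 1206 in flox mice and 1040 to 1270 in MI4KO mice. Its log2 difference was -0.03 (SE 0.08). Kansl1l, 106.7 kb away on that side, had a log2 difference of -0.19 (SE 0.12, unadjusted p = 0.128 by limma). Of the 12 tested genes within 2 Mb of Irf4, where both groups carry the floxed allele, 0 passed the limits, 0 had an unadjusted p under 0.05 and the median log2 difference was -0.03. The Cre insertion, the loss of Irf4 and any strain sequence linked to Cre differ together between the groups and cannot be told apart. Kif1a is on the same chromosome as Myl1 but 26067 kb away.

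**Figure D2:**
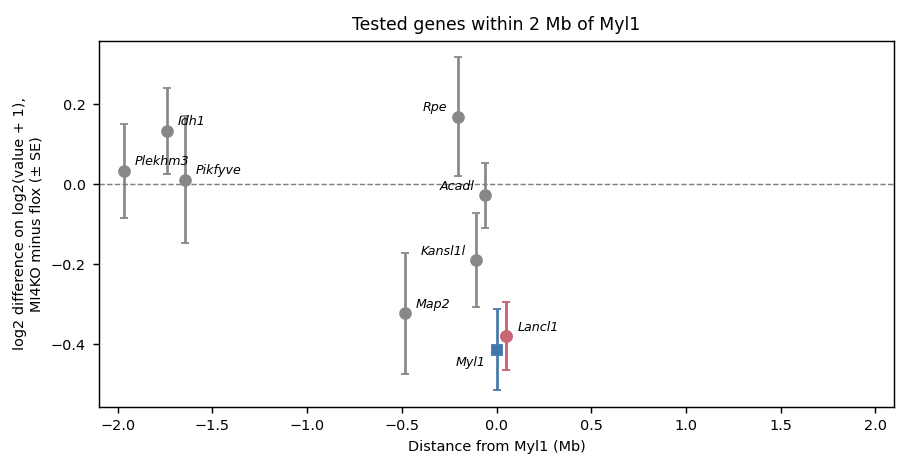
Log2 difference on log2(value + 1), MI4KO minus flox, of the 8 tested genes within 2 Mb of Myl1 (circles, Lancl1 in red) and of Myl1 (blue square), against the distance in Mb between gene ends, with bars for the standard error. Lancl1 at -0.38 lies beside Myl1 at -0.41, while Acadl on the other side is at -0.03.

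The relatives of LANCL1 and the enzymes of glutathione were measured as a list of 25 genes, of which 23 were tested. None passed the limits in limma and 1 had an unadjusted p under 0.05. Gclm, the modifier subunit of glutamate-cysteine ligase, had the highest log2 difference at 0.17, and Ggt5, a gamma-glutamyltransferase, had the lowest at -0.30. The median was 0.01.

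Erdr1 had the widest difference of the 9 genes on log2(value + 1), while by the ratio of means Syt12 was wider, at 2.49 against 2.46. Its values were 18.1, 18.7, 31.6 and 19.2 in flox mice 1 to 4, so that flox mouse 3 stood above the rest of its group. In MI4KO mice 1 to 4 they were 2.39, 6.01, 13.6 and 13.6. The groups did not overlap, and the MI4KO mice fell into a low pair, mice 1 and 2, and a pair closer to flox, mice 3 and 4. The means were 21.9 ± 6.48 (SD, n = 4) and 8.89 ± 5.61 (SD, n = 4), a ratio of flox to MI4KO of 2.46 and a log2 difference of -1.40 (SE 0.38). The coefficient of variation in MI4KO mice, 63.1%, was well above the 11.2% that counting sets. Erdr1 is placed by RefSeq on chromosome X of GRCm38.p6 from 170010526 to 170018797, at the part that X and Y share, and is called a transcribed pseudogene there. In GENCODE M21 the same locus is Gm21887. Of the 50-base words in its transcripts, the length of the reads, 59.7% also occur in GENCODE transcripts of Gm47283. The authors' table has no gene of that name. Reads of the copies could have been split or added together, so the values of Erdr1 are uncertain. Mid1, the nearest tested gene, had a log2 difference of -0.11 (SE 0.12).

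Gm7120 followed the same order in the MI4KO mice as far as its lowest members go. It was at 11.1, 10.7, 12.8 and 10.1 in flox mice 1 to 4 and at 2.25, 6.14, 9.71 and 8.40 in MI4KO mice 1 to 4. MI4KO mouse 1 was the lowest for both Erdr1 and Gm7120 and MI4KO mouse 2 the next, and flox mouse 3 was the highest for both. The means of Gm7120 were 11.2 ± 1.17 (SD, n = 4) and 6.62 ± 3.27 (SD, n = 4), and without MI4KO mouse 1 the ratio of flox to MI4KO went from 1.69 to 1.38. The annotation gives the gene as Tmem267 on chromosome 13 from 119488039 to 119611059 on the plus strand, and 4.38% of its 50-base words occur in other genes. It shares chromosome 13 with Irf4 but lies 88721 kb away. Its nearest tested neighbors, 4833420G17Rik and Hmgcs1, had log2 differences of -0.21 (SE 0.10) and 0.02 (SE 0.08).

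The numbers in the labels fall into a lower range, with flox mouse 1 and MI4KO mice 1 and 2, and a higher range with the other 5 mice. What the ranges mean is not stated. In the lower range the ratio of MI4KO to flox was 0.232 for Erdr1 and 0.378 for Gm7120, and in the higher range it was 0.586 and 0.807. The lower range holds 1 flox mouse, so these ratios have no spread of their own. The other lower genes differed less between the ranges. The ratios were 0.595 and 0.581 for 2610035D17Rik, 0.555 and 0.630 for Amigo3, 0.588 and 0.710 for Kif1a, and 0.773 and 0.745 for Lancl1. The higher genes also differed between the ranges, with ratios of 1.45 and 2.79 for Poln, 1.33 and 2.31 for Rab30, and 1.74 and 3.34 for Syt12. MI4KO mouse 3, their highest mouse, is in the higher range. Rn45s, the precursor of ribosomal RNA, also split the MI4KO mice in this way. It was at 20321 and 17980 in MI4KO mice 1 and 2 and at 66561 and 40897 in mice 3 and 4, with flox mice between 48533 and 64787. Rn45s was singled out after its values were seen, and its part in the values of Erdr1 and Gm7120 was not tested.

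For Poln and Rab30 the lowest MI4KO mouse lay just above the highest flox mouse. Poln lies on chromosome 5 from 34007179 to 34169448 on the minus strand, in 28 exon blocks. Its values were 1.18, 1.60, 1.20 and 0.874 in flox mice 1 to 4 and 1.81, 1.62, 4.65 and 2.18 in MI4KO mice 1 to 4. MI4KO mouse 2, with 25 reads, lay next to flox mouse 2, with 23 reads. The means were 1.21 ± 0.295 (SD, n = 4) and 2.56 ± 1.41 (SD, n = 4), and the ratio of MI4KO to flox of 2.11 became 1.54 without MI4KO mouse 3. The log2 difference was 0.62 (SE 0.22). Haus3, a gene of the spindle, overlaps 1.99% of the exonic bases of Poln on the same strand. Haus3 had a log2 difference of -0.16 (SE 0.16, unadjusted p = 0.336 and adjusted p = 1.0 by limma). Of 17 genes of translesion and repair polymerases including Haus3, 14 were tested, and 0 passed the limits or an unadjusted p under 0.05 in limma. They ran from -0.16 for Haus3 to 0.37 for Rev3l, the catalytic subunit of polymerase zeta, and the median was -0.0047.

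Rab30 lies on chromosome 7 from 92741603 to 92844535 on the plus strand, in 6 exon blocks. It was at 2.31, 2.36, 1.28 and 2.33 in flox mice 1 to 4, with mouse 3 lowest. In MI4KO mice 1 to 4 it was at 2.97, 3.17, 6.51 and 2.66. The means were 2.07 ± 0.529 (SD, n = 4) and 3.83 ± 1.80 (SD, n = 4), a ratio of 1.85 that became 1.42 without MI4KO mouse 3. The log2 difference was 0.61 (SE 0.22). Of 54 other Rab GTPases, 53 were in the table and 39 were tested, 19 with a positive and 20 with a negative log2 difference and a median of -0.00021. None passed the limits in limma and 2 had an unadjusted p under 0.05, Rab20 and Rab34, with log2 differences of -0.39 each (SE 0.18 and 0.14, adjusted p = 1.0 for each by limma). Rab13 had the highest value of the list, 0.23. Pcf11 and Prcp, the tested genes on either side of Rab30, had log2 differences of -0.06 (SE 0.13) and -0.03 (SE 0.13).

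Syt12 is the gene of the 9 whose groups overlapped. It lies on chromosome 19 from 4445908 to 4477447 on the minus strand, in 9 exon blocks. It was at 1.75, 2.01, 1.58 and 2.84 in flox mice 1 to 4 and at 3.41, 2.65, 12.0 and 2.30 in MI4KO mice 1 to 4. MI4KO mice 2 and 4 lay below flox mouse 4, and MI4KO mouse 3 stood far above the next mouse, MI4KO mouse 1. The means were 2.04 ± 0.561 (SD, n = 4) and 5.10 ± 4.65 (SD, n = 4), and the ratio of 2.49 became 1.36 without MI4KO mouse 3. The log2 difference went from 0.77 (SE 0.35) to 0.32 (SE 0.17). Of its exonic bases, 17.2% overlap A930001C03Rik on the other strand, which was at most 0.242 in any mouse. Whether the authors' counting used strand is not given in the sources used here. Of 27 other synaptotagmins and related C2 proteins, 9 were tested, and 0 passed the limits or an unadjusted p under 0.05 in limma. They ran from -0.32 for Syt15 to 0.07 for Sytl2, with a median of -0.13. Kdm2a and Pcx, on either side of Syt12, had log2 differences of -0.03 (SE 0.08) and 0.06 (SE 0.10).

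The distance between the groups can be set against counting error at the pair of mice that lie nearest to each other. For Erdr1, flox mouse 1 had 1.33 times the value of MI4KO mouse 4 (exact 95% counting interval 1.11 to 1.59, from 290 and 225 reads). For Lancl1, flox mouse 4 had 1.17 times the value of MI4KO mouse 3 (interval 1.02 to 1.35, from 419 and 391 reads). For both the lower bound lay above 1. For 2610035D17Rik the ratio was 1.26 (interval 0.877 to 1.81), for Amigo3 it was 1.07 (0.794 to 1.45), and for Rab30 it was 1.13 (0.704 to 1.82). Just inside the line of no overlap were Poln at 1.01, Kif1a at 1.03 and Gm7120 at 1.04, and just outside was Syt12 at 0.808. These same values chose the genes, so the intervals describe the reads behind the nearest pairs and are no test of the groups. Molecular identifiers were not used, so these intervals hold counting error and no other.

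**Figure D3:**
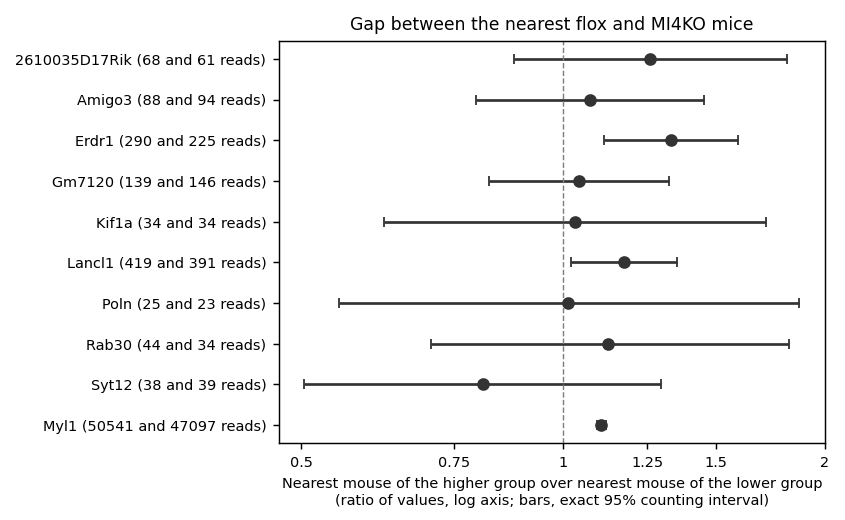
Ratio, on a log axis, of the nearest mouse of the higher group to the nearest mouse of the lower group for the 9 genes and Myl1, with exact 95% counting intervals as bars and the reads of both mice in the labels. The intervals of Erdr1, Lancl1 and Myl1 stay above 1 and those of the other 7 genes reach below it.

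The 9 genes did not all follow 1 pattern across the 8 mice, though some pairs of them were close. MI4KO mouse 3 was the highest of all mice for Poln, Rab30 and Syt12, and MI4KO mouse 1 was the lowest for Amigo3, Erdr1, Gm7120 and Kif1a. MI4KO mouse 4 was the lowest for 2610035D17Rik and Lancl1. Over all 11865 genes tested, MI4KO mouse 3 was the highest mouse for 3666, against 437 to 1869 for each other mouse. Being highest in that mouse is therefore not particular to these genes. The same count was not made for the lowest mouse. Among the tested genes outside the 9, the nearest pattern to each was taken as the smallest root-mean-square difference of the 8 deviations from the gene's own mean on the log2 scale, and a small value over 8 mice can arise among 11865 genes without any link. The nearest was Pparg, the regulator of fat cells, for 2610035D17Rik (0.16), Dpysl3 for Amigo3 (0.15), Klf2, a factor of endothelial cells, for Erdr1 (0.41), and Id1 for Gm7120 (0.24). It was Kdr, the VEGF receptor of endothelial cells, for Kif1a (0.087), Tnfrsf10b for Lancl1 (0.090), 2310001H17Rik for Poln (0.10), Gbp6 for Rab30 (0.19) and Slc39a14, a zinc transporter, for Syt12 (0.25). Within the 9 genes, the same difference ran from 0.19 for Amigo3 with Kif1a to 1.32 for Erdr1 with Syt12. It was 0.19 for 2610035D17Rik with Lancl1 and 0.24 for Poln with Rab30. Genes of the same direction were chosen alike, so nothing is read from their closeness. Kdr was at 57.0 to 67.2 in flox mice and at 38.7, 57.7, 39.8 and 63.4 in MI4KO mice 1 to 4, which is the order of Kif1a in the MI4KO mice. Slc39a14 reached 59.2 in MI4KO mouse 3, against 13.2 to 15.6 elsewhere.

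**Figure D4:**
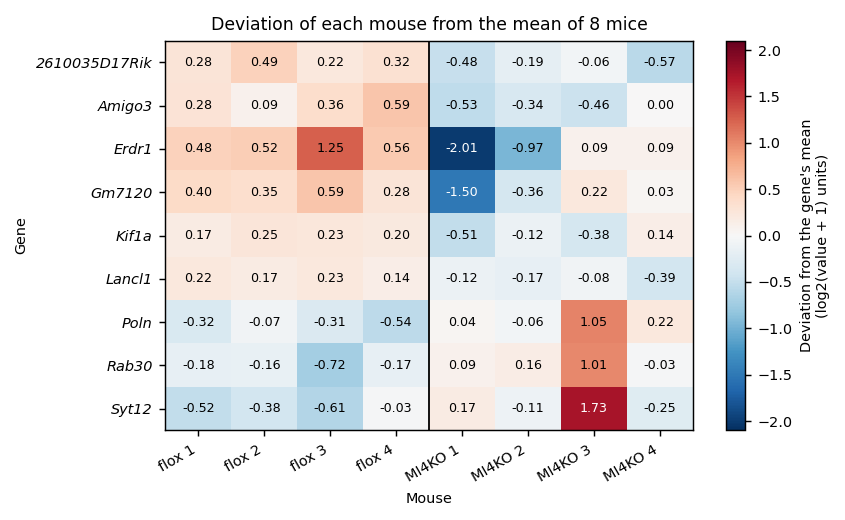
Deviation of each mouse from the mean of the 8 mice on log2(value + 1), for the 9 genes in rows and the mice in columns, with the values printed in the cells. Poln, Rab30 and Syt12 are at 1.05, 1.01 and 1.73 in MI4KO mouse 3, and Erdr1 and Gm7120 are at -2.01 and -1.50 in MI4KO mouse 1.

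Markers of other cell types were summed in each mouse because several of the 9 genes are also known from nerve, vessels or blood. Schwann cell and nerve markers (17 of 17 genes in the table) were at 123.5 to 161.5 in flox mice and 109.3 to 134.1 in MI4KO mice, and neuromuscular junction genes were at 262.6 to 288.7 and 270.5 to 286.6. Endothelial markers were at 453.1 to 543.7 and 355.0 to 491.7. All 10 of them had negative log2 differences, from -0.37 for Kdr to -0.07 for Esam, with 0 past the limits in limma and 2 at an unadjusted p under 0.05. Over all genes tested, 6671 of 11865 were negative. So were 9 of 12 tested Schwann cell and nerve markers, 10 of 13 neuromuscular junction genes, 8 of 9 adipocyte markers and 8 of 10 tendon and fibroblast markers. Macrophage markers went the other way, with 1 of 8 negative. Negative differences were thus not particular to endothelial markers. MI4KO mouse 1, the lowest mouse for 4 of the 9 genes, also had the lowest sum for several of these lists. They were endothelial markers, adipocyte markers (785.2, against 916.2 to 1121 in the others), blood cell markers (378.2, against 413.1 to 599.6) and tendon and fibroblast markers (296.5, against 334.3 to 468.5). Single adipocyte markers did not all follow their sum, which was highest in MI4KO mouse 3. Adipoq and Cidec were lowest in MI4KO mouse 1, at 2.18 and 1.96. Plin1 was lowest in MI4KO mouse 3, at 1.26, against 1.52 in MI4KO mouse 1. Macrophage markers overlapped, at 45.5 to 57.3 in flox mice and 46.7 to 64.6 in MI4KO mice, and neutrophil markers reached 6.38 in MI4KO mouse 3, where no other mouse exceeded 2.36. Among these lists, Cfd, Fmod and Cyp2e1 were the genes past the limits in limma, with log2 differences of -0.65, -0.72 and -0.96 (SE 0.28, 0.29 and 0.37, adjusted p = 1.0 for each). Cyp2e1, a liver marker, was at 11.5 in flox mouse 1, the mouse with the high sum of liver markers. It was at 1.80 to 2.43 in the other flox mice and at 1.06 to 1.51 in MI4KO mice. The part of such cells in the values of the 9 genes was not tested.

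The neighbors of the 9 genes were looked at together. Within 0.5 Mb of any of them lie 115 other tested genes, of which 0 passed the limits in limma, against 0.219% of all genes, and 6 (5.22%, against 3.36% of all genes) had an unadjusted p under 0.05. Their median log2 difference was -0.02. The groups did not overlap for 6 of the 115 (5.22%, against 2.07% of all genes), 3 of them among the 30 tested genes near Amigo3. They are Myl1, Gnai2, Peli3 and the 3 that follow. These were Ip6k1, an inositol hexakisphosphate kinase 4.38 kb from Amigo3, with a log2 difference of -0.27 (SE 0.08, unadjusted p = 0.00643 and adjusted p = 1.0 by limma), Lamb2, a laminin chain 424.1 kb from Amigo3, at -0.18 (SE 0.07), and Fgfr3, a growth factor receptor 270.1 kb from Poln, at 0.28 (SE 0.10). Gnai2, a G protein subunit, was at -0.15 (SE 0.08), and Peli3, a ubiquitin ligase, at -0.26 (SE 0.13). These neighbors were named after their values were seen.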

How the data were processed

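SOL RNA of 4 flox and 4 MI4KO mice was sequenced by the authors as stranded poly(A) libraries with single reads of 50 bases. Per the labels and the methods, reads were mapped to UCSC transcripts with Bowtie2 2.1.0 (mm10), quantified with RSEM 1.2.15 and scaled by TMM. Values in the deposited table are a signal, TMM-normalized CPM, with column sums of 917785 to 1089208. The 3 columns with the authors' fold changes, p-values and FDR were not used. Mice were grouped by their titles. Nothing in the labels ties a flox mouse to an MI4KO mouse.

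Whole reads were recovered from the step of each mouse, and 100% of non-zero values came out whole within 0.001 reads, a tolerance that grew in proportion for genes with very many reads. A value of 0.181 to 0.225 corresponds to 3 reads. limma 3.58.1 (R 4.3.3) with a mean-variance trend was run, two-sided, on log2(value + 1) for genes that reached 1 in 4 or more mice. The limits were 1.5-fold and an unadjusted p under 0.05, the cutoffs that the study used with edgeR, here on the scale of log2(value + 1). The limma fit was tested on simulated data. edgeR 4.0.16 and DESeq2 1.42.0 on recovered reads were alternatives. Counting intervals of ratios were exact binomial (scipy 1.17.1).

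Positions are from GENCODE M21 (GRCm38) and, for neighbors, from RefSeq on GRCm38.p6, where 23864 of 24054 symbols matched. The 9 genes and the gene lists were chosen with earlier results of these data known. Named genes are the 9, Irf4, Myl1, nearest tested neighbors, the genes past the limits or the extremes of each family list, and the gene nearest in pattern to each. Promoters of 4 of the 9 are not reported here. Kansl1l, Rn45s, Rab34, Ip6k1, Lamb2, Fgfr3, Gnai2, Peli3 and the marker genes named outside this rule were chosen after their values were seen.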

Additional observations from a re-analysis of the deposited data

Results flagged for a closer look

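The distance of the highest or lowest mouse from its neighbor was divided by the spread of its group of 4, in log2 units, and set against the 95% critical value of Dixon's test for that group size. Of the 22 groups examined, for the 9 genes, Irf4 and Myl1, 2 exceeded it, and chance gives about 1 in 20. Erdr1 was at 31.6 in flox mouse 3, against 18.1 to 19.2 in the other flox mice, a gap of 0.897 of the range. Rab30 was at 1.28 in the same mouse, against 2.31 to 2.36 in the other flox mice, a gap of 0.960 of the range.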

How the results depend on the processing

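The log2 differences of the 9 genes kept their sign in all 18 alternatives, and 160 of 162 values moved by less than the spread between mice. The exceptions were Poln with edgeR (1.07) and with DESeq2 (1.08). Over all alternatives, Erdr1 ran from -1.74 to -0.97, Gm7120 from -1.01 to -0.44, Kif1a from -0.61 to -0.33 and Lancl1 from -0.42 to -0.31, and Syt12 was lowest, at 0.28, without both flox mouse 1 and MI4KO mouse 3. Without MI4KO mouse 3, alone or with flox mouse 1, Poln, Rab30 and Syt12 were no longer past the limits. Syt12 was also lost with no filter, without the trend, with robust estimation and without flox mouse 1, 2 or 3. Gm7120 was lost with robust estimation, with DESeq2 and without MI4KO mouse 1, Rab30 without flox mouse 3, Amigo3 and Poln without flox mouse 4, and 2610035D17Rik without MI4KO mouse 4. Kif1a passed the limits in 1 of the 18, edgeR. The 26 genes past the limits became 41 with a pseudocount of 0.5, 13 with robust estimation, 65 with edgeR, 51 with DESeq2 and 41 without both flox mouse 1 and MI4KO mouse 3, and ran from 18 to 57 with each mouse left out in turn, highest without MI4KO mouse 4. The share of tested genes without overlap, 2.07%, became 10.8% without that pair of mice and 3.54% to 5.39% with 1 mouse left out, where fewer mice have to be separate. The counts of genes past the limits near Myl1, near Irf4, near the 9 genes and in the family lists stayed at 0 in all 18 alternatives, and the other counts for them were not run under alternatives. No paired analysis was possible because the labels give each mouse its own number and no number is shared between the groups. The few reads of Kif1a, Poln and Irf4 limit what can be seen of them.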
